A study of Mus musculus with 39 samples.

Results

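The genes described here are 10 members of the integrated stress response: the 4 kinases Eif2ak1, Eif2ak2, Eif2ak3 and Eif2ak4, the phosphatase subunits Ppp1r15a and Ppp1r15b, and the downstream genes Atf4, Atf5, Ddit3 and Trib3. They were taken by name, whatever their values, and all 10 were found among the 43430 genes of the count table. Expression was measured by RNA sequencing in 39 libraries of cells sorted from lungs of C57BL/6J mice, 20 of monocytes and 19 of alveolar macrophages with low Siglec F. Monocytes were taken from naive mice and macrophages after bleomycin, which damages lung epithelium and is used to model fibrosis. Mice of each kind were young or old and had saline or ISRIB, so there were 8 groups with 5 libraries each, except young ISRIB macrophages with 4.

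Young mice were 8 to 12 weeks and old mice over 18 months by the sample labels, but 3 to 5 and 18 to 24 months by the text of the series. Bleomycin-treated mice had daily injections of ISRIB or vehicle into the peritoneum starting on day 7, with cell collection on day 21, and no timing is given for naive mice. The labels name 1 strain for all mice and no genetic change. Since every macrophage library is from an injured lung and every monocyte library from a naive one, cell type and bleomycin cannot be told apart. The groups are bulk sorted populations, so fewer cells of a type and less RNA per cell cannot be told apart either.

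In the integrated stress response, each of the kinases senses a different stress and phosphorylates the alpha subunit of the initiation factor eIF2. Phosphorylated eIF2 inhibits its exchange factor eIF2B, which lowers protein synthesis in general while translation of mRNAs such as that of Atf4 goes up, and ATF4 then activates genes of amino acid supply, redox balance and, with prolonged stress, cell death. The PPP1R15 subunits direct protein phosphatase 1 to eIF2 and end the response. ISRIB binds eIF2B and keeps it active when eIF2 is phosphorylated, downstream of the kinases. Much of the response acts through translation and phosphorylation, which mRNA counts do not measure.

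Short stretches of promoter are shown for the only 2 members whose promoter held a motif searched for, since ATF4 and cAMP response factors are among the regulators of this pathway. RefSeq promoter entries, 250 bases before to 50 after a transcription start in GRCm38.p6, were found for 9 of the 10 members in 11 windows, and Ppp1r15b had no entry. The composite element bound by C/EBP and ATF factors was searched as TGATGNAAN and the cAMP response element as TGACGTCA, on both strands. The motif is in capitals in these 30 bases, read 5′ to 3′ on the gene's own strand.
Ppp1r15a, cAMP response element, chr7:45526262-45526291 on the minus strand: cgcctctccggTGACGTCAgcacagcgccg
Trib3, C/EBP-ATF element on the opposite strand, chr2:152344028-152344057 on the minus strand: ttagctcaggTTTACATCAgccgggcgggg
The Ppp1r15a element lay from position -12 to -5, just before the transcription start, and the Trib3 element from position 13 to 21 after it. Positions are counted from the RefSeq start, and the GENCODE gene of Trib3 begins further downstream, at 152344032 on the minus strand, so that by GENCODE this element lies before the gene. Of all 32851 promoter windows of the same length, 1.79% held the cAMP response element and 3.95% the C/EBP-ATF element. Among 29 known ATF4 and CHOP target genes with a window, 12 (41.4%) held the C/EBP-ATF element against 4.5% of all 27025 genes, and 0 held the cAMP response element. The list was made of genes already known as targets of factors that bind the C/EBP-ATF element, so that share is not an independent result. All motif hits are matches of letters, not measured binding.

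Library totals were 4595331 to 16056708 counts with a median of 8628240, and 12324 to 17313 genes had a count. Young saline monocyte replicate 4 stood apart: it had the lowest total and the fewest genes, and its correlation with the rest of its group was 0.979. The markers of each labelled cell type were present in its libraries. Siglecf averaged 51.4 to 126 CPM over the macrophage groups and under 0.83 CPM over the monocyte groups, and Ly6c2, a marker of classical monocytes, averaged 387 to 561 CPM in monocyte groups and 0.968 to 3.07 CPM in macrophage groups. Neutrophil markers summed to 510.5 to 810.8 CPM in young and 477.7 to 610 CPM in old saline monocytes. In young and old saline macrophages they summed to 81.9 to 122 and 89.1 to 156 CPM. S100a8, a neutrophil marker of this list, went the other way, at 5.79 and 5.49 CPM in young and old saline monocytes. It averaged 22.96 and 31.87 CPM in young and old saline macrophages. Summed dendritic cell markers were also higher in saline monocytes, and summed epithelial and endothelial markers were higher in saline macrophages. Cdh5, an endothelial marker, averaged 0.527 and 2.18 CPM in young and old saline monocytes and 0.636 and 3.71 CPM in saline macrophages. Sums of B and plasma cell markers in saline monocytes were above those of young saline macrophages and overlapped those of old ones. CPM are counts scaled to the same total in every library. Members are compared with each other only per kilobase of exon.

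All 10 members were detected in both cell types, with Atf4 and Ppp1r15b the highest and Trib3 the lowest. In macrophages Atf4 had 50.1 ± 8.30 CPM per kilobase (SD, n = 19) and Ppp1r15b 41.6. Eif2ak1 followed at 15.8, and then Eif2ak3 (9.69), Eif2ak2 (9.62), Ppp1r15a (8.84), Eif2ak4 (7.37), Atf5 (6.28) and Ddit3 (6.26), of which no neighbours in this order differed by more than their SD. Trib3 was at 1.69 CPM per kilobase. In monocytes Atf4 (87.6) and Ppp1r15b (85.7 CPM per kilobase) did not differ beyond their SD, and Ppp1r15a came next at 65.2. Eif2ak2 (21.8) and Eif2ak1 (20.9) were again within their SD of each other, and below them came Eif2ak3 (15.3), Ddit3 (6.02), Eif2ak4 (3.55), Atf5 (2.06) and Trib3 (0.299 CPM per kilobase). Ppp1r15a thus came next below the top pair in monocytes, by more than the SD but with overlapping ranges, and stood in the middle group in macrophages.

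**Figure D1:**
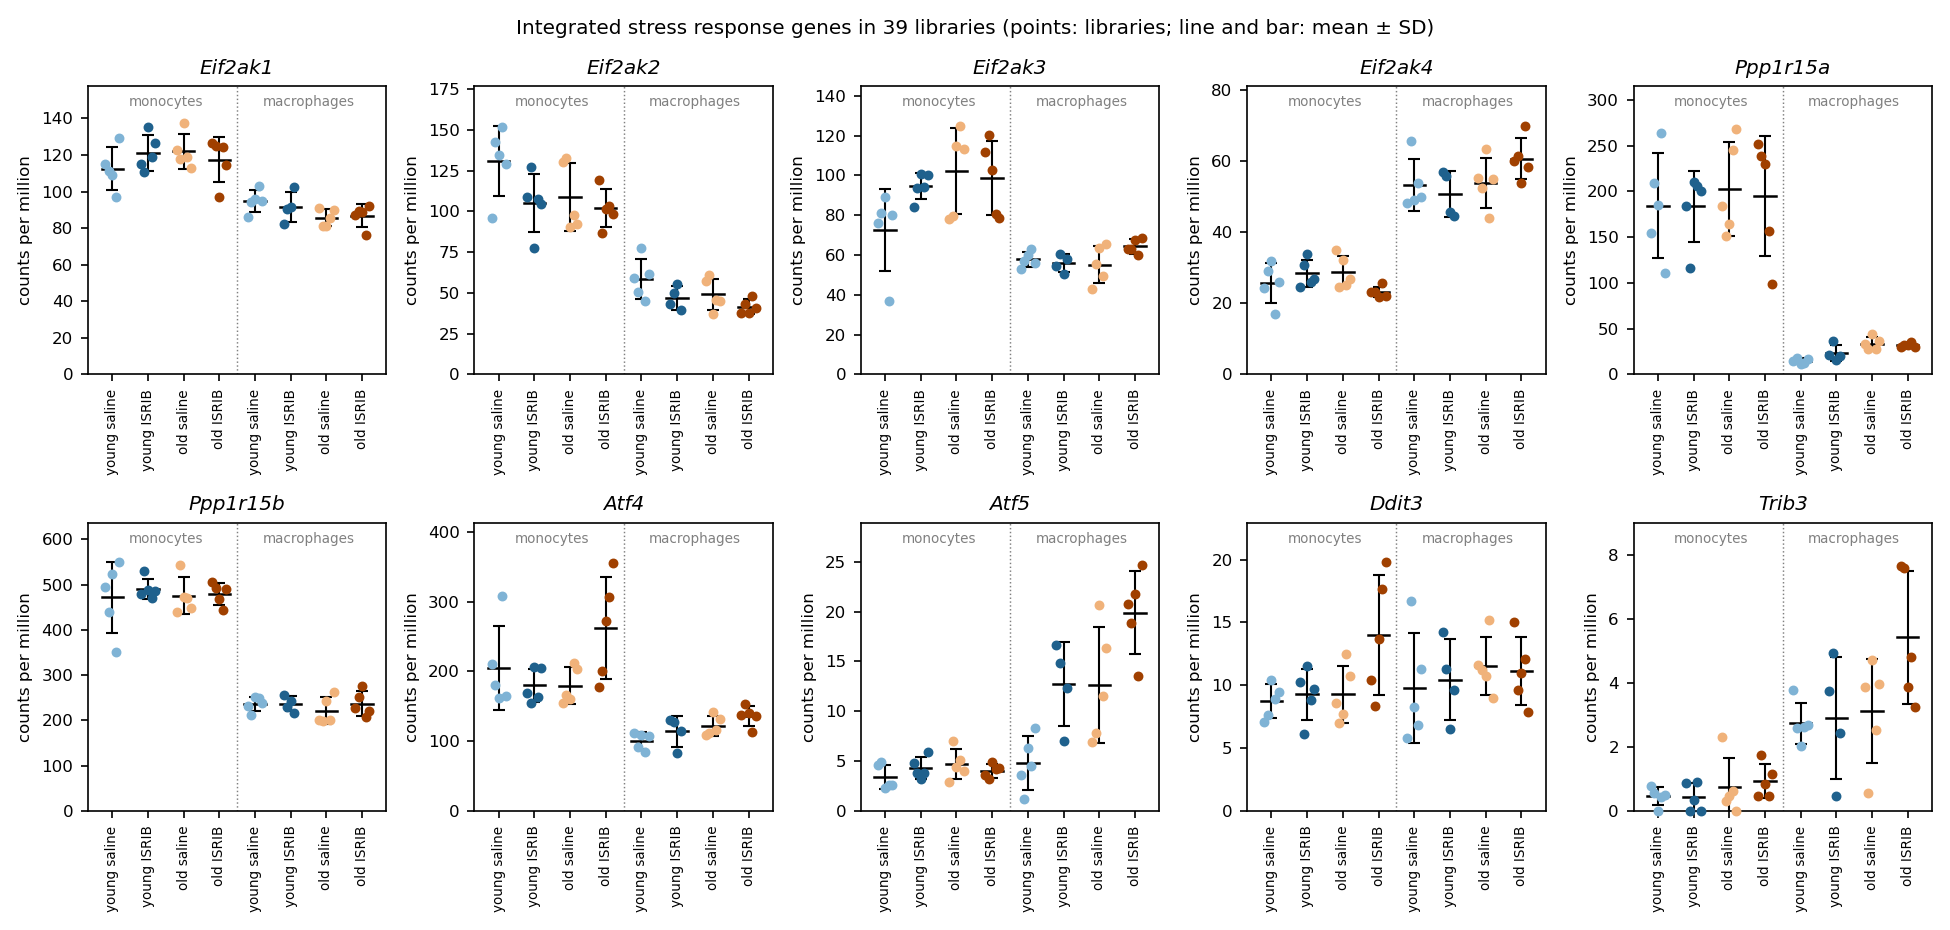
CPM of the 10 genes in each library (points), by group, with the group mean (line) and SD (bar); monocyte groups are left and macrophage groups right of the dotted line in each panel. Ppp1r15a lay between 98.4 and 269 CPM in monocytes and between 10.9 and 43.8 CPM in macrophages, and Atf5 reached 13.5 to 24.7 CPM in old ISRIB macrophages.

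Between macrophages of bleomycin-treated mice and monocytes of naive mice, both given saline, 9 of the 10 members differed in level. Ppp1r15a, Eif2ak2, Ppp1r15b, Atf4, Eif2ak3 and Eif2ak1 were lower in macrophages, Eif2ak4, Atf5 and Trib3 were higher, and Ddit3 did not pass the test. Differences of this kind were common: with the quasi-likelihood test of edgeR at a Benjamini-Hochberg adjusted p under 0.05, 70.0% of all 13587 genes tested were called (35.8% higher and 34.2% lower), so the members' count lies near the background. The ranges of 5 of the 10 members did not overlap between the cell types, with 1 higher and 4 lower in macrophages, as was so for 1898 genes that were higher and 1905 that were lower of the 13587. Markers of other cells differed between these libraries too, and their part in the members' differences between cell types was not tested.

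Of the kinases, Eif2ak2 (PKR, which binds double-stranded RNA and is itself induced by interferon) had 90.5 to 152 CPM in the 10 saline monocyte libraries and 37.2 to 77.3 CPM in the 10 saline macrophage libraries. The ranges did not overlap, and the log2 fold change was -1.06 ± 0.10 (SE; adjusted p 9.10e-12 by edgeR). All 16 interferon-induced genes on a list of their own were lower in macrophages too, with a median log2 fold change of -1.72 against -0.002 over all genes. Mx1, an antiviral GTPase, fell by 3.36 and Irf7, a factor that amplifies interferon production, fell by 3.21 on the log2 scale. The part of interferon in the Eif2ak2 levels was not tested.

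Eif2ak4 (GCN2, which senses uncharged tRNA when amino acids are short) went the other way. It had 16.97 to 35 CPM in saline monocytes and 43.9 to 65.7 CPM in saline macrophages, again with no overlap, for a log2 fold change of 1.06 ± 0.09 (adjusted p 4.98e-13 by edgeR). Eif2ak3 (PERK, the kinase in the membrane of the endoplasmic reticulum) fell by 0.54 ± 0.11 (adjusted p 5.32e-05) with overlapping ranges, 42.7 to 65.3 CPM in macrophages and 36.8 to 125.0 CPM in monocytes. Its lowest monocyte value was in replicate 4 of young saline, the library that stood apart, and without it the log2 change was -0.62 (adjusted p 8.04e-08 by edgeR). Eif2ak1 (HRI, which is inhibited by haem and also relays mitochondrial stress) had the smallest called difference, -0.29 ± 0.06 (adjusted p 1.20e-04), with 81.0 to 103 CPM in macrophages and 97.1 to 138 CPM in monocytes.

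As shares of the summed kinase level per kilobase, Eif2ak4 made up 17.4% ± 2.35 (SD, n = 19) in macrophages and 5.76% ± 0.832 (n = 20) in monocytes, and the ranges were 13.5 to 22.2% and 4.12 to 7.53%. Eif2ak2 made up 22.6% ± 4.09 in macrophages and 35.5% ± 6.55 in monocytes. The shares of Eif2ak1 (37.2% and 33.9%) and Eif2ak3 (22.8% and 24.8%) differed less. These are shares of mRNA, not of kinase activity.

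Ppp1r15a (GADD34, the stress-induced phosphatase subunit) had the largest difference of the members. In saline monocytes it had 154, 209, 185, 264 and 111 CPM in young and 184, 151, 164, 245 and 269 CPM in old replicates 1 to 5. In saline macrophages it had 14.99, 17.6, 10.9, 12.6 and 16.7 CPM in young and 32.7, 27.7, 43.8, 27.9 and 36.2 CPM in old replicates. Every monocyte library was above every macrophage library, and the log2 fold change was -3.03 ± 0.17 (adjusted p 3.28e-19 by edgeR). Ppp1r15b (CReP, the subunit present without stress) fell by 0.97 ± 0.07 (adjusted p 1.35e-15), from 350 to 551 CPM in monocytes to 199 to 262 CPM in macrophages.

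Immediate early genes, which rise within minutes of stimulation or cell handling, moved in the same direction as Ppp1r15a between the cell types. Of 18 such genes, 14 were lower and 2 higher in saline macrophages, with a median log2 fold change of -1.34, and their summed level was 11260 to 18280 CPM in saline monocytes and 2742 to 6247 CPM in saline macrophages. Dusp1, a phosphatase of MAP kinases, fell by 2.38, and Egr2, a transcription factor of this class, was higher by 4.22. The part of cell handling in the Ppp1r15a levels was not tested.

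Atf4, the transcription factor at the centre of the response, had 155 to 308 CPM in saline monocytes and 83.7 to 141 CPM in saline macrophages, with no overlap. Its log2 fold change was -0.71 ± 0.12 (adjusted p 1.71e-06 by edgeR). The highest monocyte value was in young saline replicate 4, the library that stood apart. Without that library the log2 change was -0.62 (adjusted p 7.25e-06 by edgeR). Atf5, a related factor with a role in mitochondrial stress, was higher in macrophages by 1.04 ± 0.24 (adjusted p 2.58e-04), but 1.16 to 20.7 CPM in macrophages and 2.32 to 6.96 CPM in monocytes overlapped. Trib3, a pseudokinase induced by ATF4 and CHOP that dampens their activity, was higher by 2.38 ± 0.51 (adjusted p 9.23e-05) at low counts, 0.565 to 4.70 CPM in macrophages and 0 to 2.32 CPM in monocytes. Ddit3 (CHOP, a factor of prolonged stress) had 5.77 to 16.7 CPM in macrophages and 6.96 to 12.5 CPM in monocytes, a log2 fold change of 0.33 ± 0.19 (adjusted p 0.111).

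**Figure D2:**
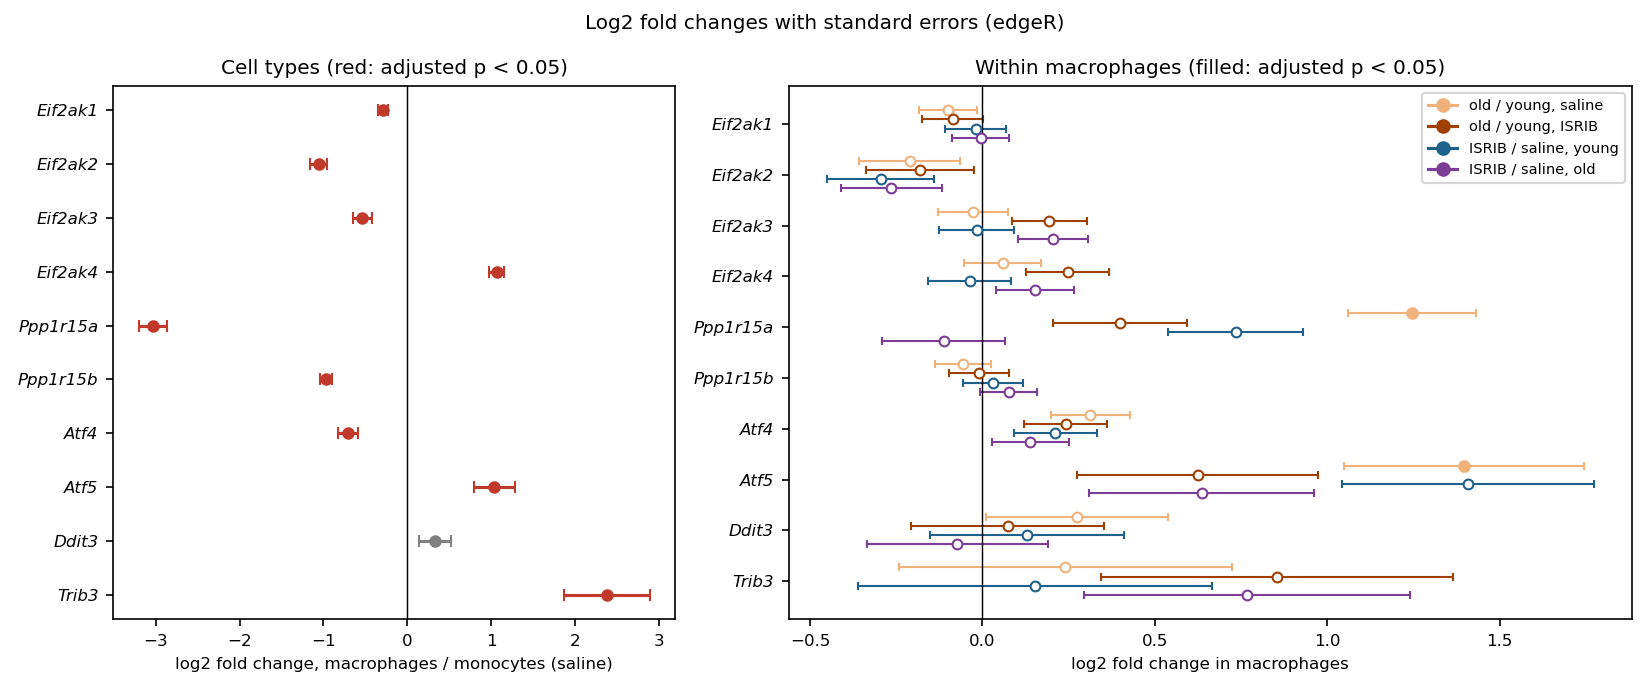
Log2 fold changes of the 10 genes with standard errors as bars: saline macrophages over saline monocytes (left), and the 4 comparisons of age and ISRIB within macrophages (right), where filled points have an adjusted p under 0.05. Ppp1r15a was the lowest on the left at -3.03, and the filled points on the right are Ppp1r15a (1.25) and Atf5 (1.40) in old over young saline macrophages.

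The genes around the members were described from lists. Of the 8 subunits of eIF2 and eIF2B, 3 were higher in saline macrophages than in saline monocytes (Eif2b3 by 0.75, Eif2s1, the alpha subunit that the kinases phosphorylate, by 0.60, and Eif2s3x by 0.34 on the log2 scale) and 2 were lower (Eif2b2 by -0.77 and Eif2b4 by -0.60). Among 15 regulators and cofactors of the pathway, 7 were higher and 4 lower. Nck1, an adaptor that binds phosphatase 1 and PERK, was higher by 1.18, and the catalytic subunits of phosphatase 1 differed in sign, with Ppp1cc at 0.80 and Ppp1cb at -0.64. Of 12 bZIP factors and partners of ATF4, 9 were lower and 1, Cebpa, was higher (0.98), with Atf3, another stress-induced factor, at -2.87 and Fos at -1.93.

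Target genes of ATF4 and CHOP did not move together between the cell types. Of 39 listed, 34 were tested, of which 15 were higher and 11 lower in saline macrophages, and the median log2 fold change was 0.23 against -0.002 over all genes. Phgdh, the first enzyme of serine synthesis, was higher by 4.89 and Gdf15, a secreted stress cytokine, by 5.06, whereas Ddit4, an inhibitor of mTOR signalling, fell by 5.80.

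Age was compared in macrophages of saline-treated mice after bleomycin, where 2 of 10 members, Ppp1r15a and Atf5, were higher in old mice and none was lower. Of all 12171 genes tested, 1.16% were called, 0.937% as higher. The Ppp1r15a values given above were 10.9 to 17.6 CPM in young and 27.7 to 43.8 CPM in old saline macrophages. Every old library was above every young library, as was so in 1.22% of all genes. The mean was 14.6 ± 2.79 CPM in young and 33.7 ± 6.69 CPM in old mice (SD, n = 5 each), and the log2 fold change was 1.25 ± 0.19 (adjusted p 9.79e-04 by edgeR). It was called in each of 18 alternative analyses.

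Ppp1r15b did not show this difference (-0.06 ± 0.08, adjusted p 0.864 by edgeR). The share of Ppp1r15a in the summed level of both subunits per kilobase was 10.6% ± 2.37 (SD, n = 5; range 7.62 to 13.6%) in young saline macrophages and 22.4% ± 2.2 (range 20.8 to 25.6%) in old ones. In young ISRIB macrophages it was 15.8% ± 5.16 (n = 4) and in old ISRIB macrophages 20.4% ± 2.44 (n = 5). All macrophage libraries, at 7.62 to 25.6%, were below all monocyte libraries, at 27.6 to 58.9%.

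**Figure D3:**
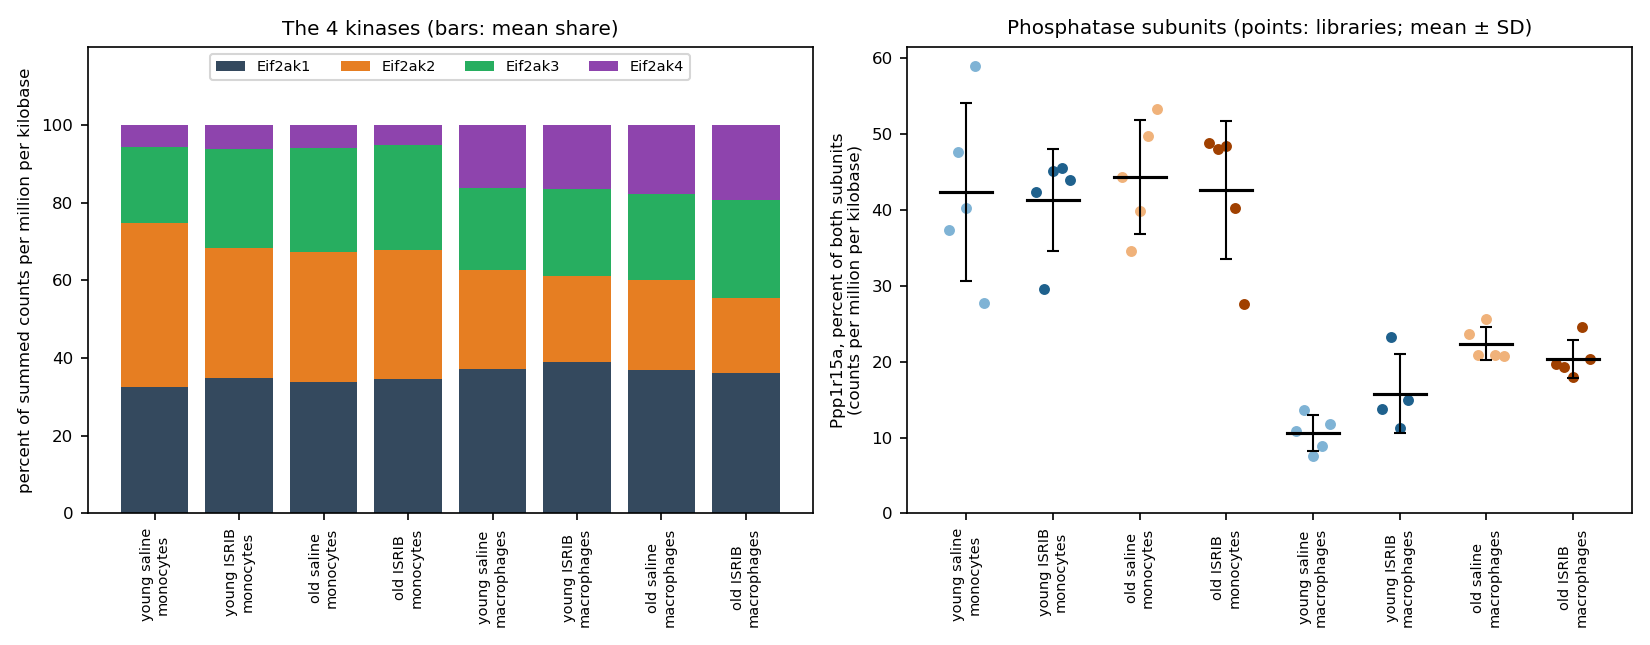
Left, mean share of each kinase in the summed kinase level (CPM per kilobase) of each group; right, share of Ppp1r15a in the sum of both phosphatase subunits in each library (points) with group mean (line) and SD (bar). Eif2ak4 has a larger share in macrophages, and the Ppp1r15a share is 7.62 to 13.6% in young saline and 20.8 to 25.6% in old saline macrophages.

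Markers of activation and of other cells were also higher in old macrophages. The summed level of 18 immediate early genes was 2742 to 3767 CPM in young and 3515 to 6247 CPM in old saline macrophages. All 18 had a positive log2 fold change, with a median of 0.58 against 0.004 over all genes, and 2 were called: Nfkbia, an inhibitor of NF-kappa B, at 0.73 (adjusted p 0.0160 by edgeR) and Cxcl2, a neutrophil chemokine, at 1.62 (adjusted p 0.0195). The 10 B and plasma cell markers summed to 6.97 to 29.3 CPM in young and 22.5 to 415 CPM in old saline macrophages, and none of the 10 was at 0 throughout either group. All 9 of these that were tested had a positive log2 fold change, and 5 were called: Igkc (4.58), Ighm (3.52), Jchain (5.82), Cd79a (3.17) and Ms4a1 (4.20 in log2). The 10 T and NK cell markers did not overlap between the ages, as Ppp1r15a did not: they summed to 0.905 to 4.12 CPM in young and 7.00 to 19.3 CPM in old saline macrophages, with 1 of 10 at 0 throughout the young group, all 7 tested positive and Cd8a called (4.06). Old replicate 4, lowest of its group in both lists, had 22.5 CPM of B and plasma cell markers, within the young range, 7.00 CPM of T and NK cell markers, above the young range, and 27.9 CPM of Ppp1r15a. Old replicates 1, 2 and 4 had immediate early sums of 4032, 3933 and 3515 CPM, near those of young replicates 1 and 2 at 3388 and 3767 CPM, with Ppp1r15a at 32.7, 27.7 and 27.9 against 14.99 and 17.6 CPM. The part of any of these lists in the age difference was not tested.

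**Figure D4:**
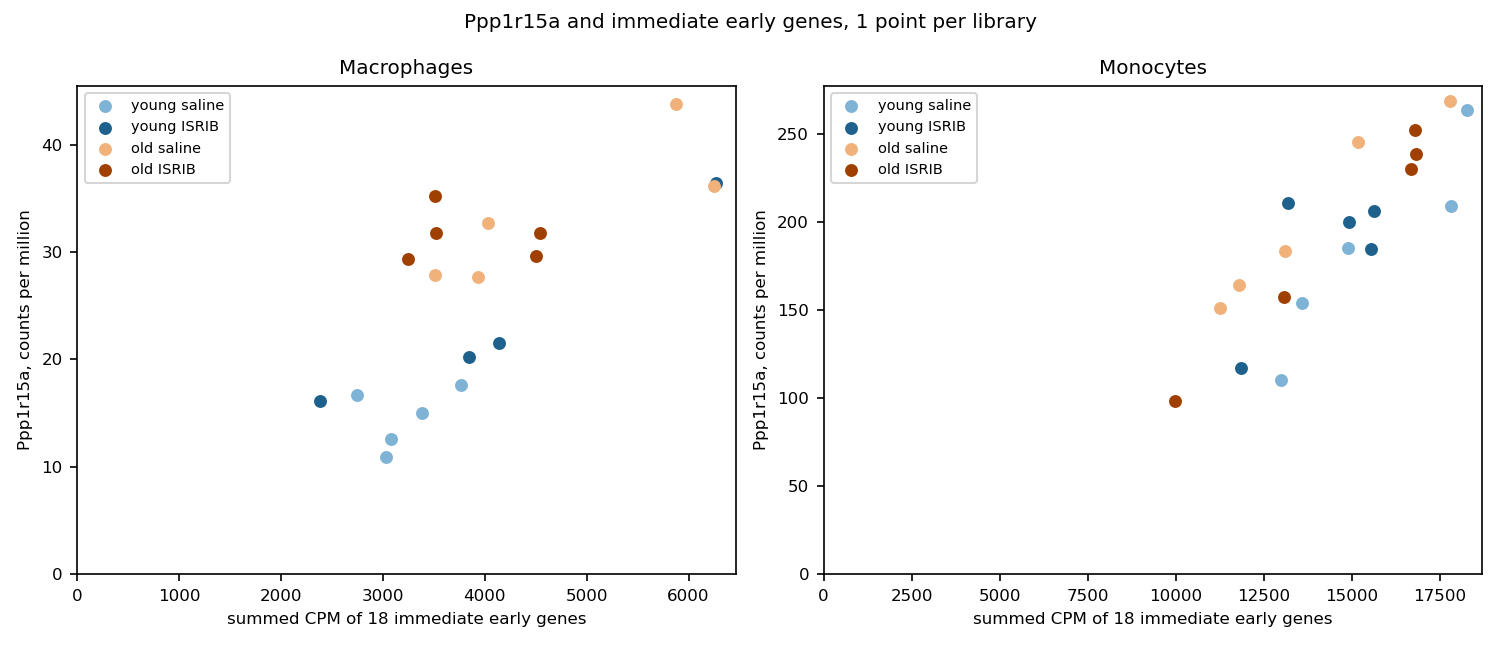
Ppp1r15a (vertical axis, CPM) against the summed CPM of 18 immediate early genes (horizontal axis) in each macrophage library (left) and monocyte library (right), with colours for age and treatment. The highest immediate early sum in macrophages, 6268 CPM, goes with 36.4 CPM of Ppp1r15a, and at sums of 3249 to 4032 CPM old saline and old ISRIB macrophages lie above young saline macrophages. Young ISRIB macrophages had sums of 2382 to 6268 CPM and 16.2 to 36.4 CPM of Ppp1r15a. The part of immediate early genes in the Ppp1r15a levels was not tested.

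Atf5 had 3.62, 1.16, 6.33, 4.50 and 8.28 CPM in young and 6.90, 7.80, 20.7, 11.5 and 16.4 CPM in old saline macrophages. The groups overlapped, since young replicate 5 was above old replicates 1 and 2. The log2 fold change was 1.40 ± 0.35 (adjusted p 0.0440 by edgeR), just under the threshold, and the call held in 8 of 18 alternative analyses. It was lost on leaving out young replicate 1, 2, 3 or 4 (adjusted p 0.121, 0.0901, 0.0689 and 0.120) or old replicate 3, 4 or 5 (0.138, 0.0646 and 0.141). The adjusted p ran from 5.67e-05 to 0.145 over all alternatives.

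Marker lists of mature alveolar macrophages and of epithelium varied among the same libraries. Old saline replicates 3 and 5, highest in Atf5, had 9755 and 9291 CPM of 10 mature alveolar macrophage markers and 288 and 172 CPM of 10 epithelial markers, whereas old saline replicates 1, 2 and 4 had 5212, 8235 and 5200 CPM and 95.0, 85.2 and 70.5 CPM. The order was not the same throughout, since replicate 2 had more of the mature markers than replicate 4 but less Atf5 (7.80 against 11.5 CPM). Atf5 rested on 9 to 133 counts in the young saline and 66 to 220 counts in the old saline libraries, so counting error adds to its spread. Young saline macrophages had 5250 to 8112 and 100.8 to 143 CPM of these lists. Siglecf averaged 51.4 ± 4.49 CPM in young saline, 72.4 ± 9.50 in young ISRIB, 81.9 ± 29.9 in old saline and 126 ± 21.0 CPM in old ISRIB macrophages (SD, n = 5, 4, 5 and 5), and Ccr2, a chemokine receptor of recruited monocytes, fell by 1.45 on the log2 scale with age in saline macrophages (adjusted p 0.00841 by edgeR). Ccr2 had 246 to 453 CPM in young and 62.7 to 195 CPM in old saline macrophages, ranges that did not overlap, as those of Ppp1r15a did not. The part of these markers in the Atf5 and Ppp1r15a levels was not tested.

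The other 8 members did not pass the test for age in saline macrophages. Atf4 had 83.7 to 111 CPM in young and 108 to 141 CPM in old replicates, a log2 fold change of 0.31 ± 0.11 (adjusted p 0.207 by edgeR). The kinases had log2 fold changes from -0.21 ± 0.15 (Eif2ak2) to 0.06 ± 0.11 (Eif2ak4), and Ddit3 and Trib3 had 0.27 ± 0.26 and 0.24 ± 0.48. None of the 8 subunits of eIF2 and eIF2B and none of the 15 regulators was called. Of 31 ATF4 and CHOP targets tested, 2 were higher: Sqstm1, an autophagy receptor, by 0.39 (adjusted p 0.00972) and Gdf15 by 1.46 (adjusted p 0.0464 by edgeR).

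In ISRIB-treated macrophages 0 of 10 members were called between old and young, against 0.937% of all genes, and DESeq2 and limma voom also called 0; 1 member, Eif2ak4, had an unadjusted p under 0.05, as had 12.2% of all genes. Ppp1r15a had 21.5, 36.4, 16.2 and 20.2 CPM in young and 29.4, 31.7, 31.7, 35.2 and 29.6 CPM in old ISRIB replicates. The old libraries were close together, and young replicate 2 was above all of them. The log2 fold change was 0.40 ± 0.19 (adjusted p 0.410 by edgeR). Phgdh was the only called gene among the ATF4 and CHOP targets (1.31, adjusted p 0.00623). T and NK cell markers summed to 2.64 to 5.97 CPM in young and 9.22 to 32.7 CPM in old ISRIB macrophages, and 5 B and plasma cell genes were called as higher.

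Averaged over saline and ISRIB, 4.86% of all genes were called in macrophages between old and young, 3.12% as higher, and Ppp1r15a (0.82 ± 0.13, adjusted p 4.78e-04) and Atf5 (1.01 ± 0.25, adjusted p 0.0163 by edgeR) were higher in old mice. Both were called in all 26 alternatives for this comparison. Atf4 was at 0.28 ± 0.08 with an adjusted p of 0.0518, and 8 of 26 alternatives called it: DESeq2 (0.0298), limma voom (0.0493), no filter on low counts (0.0135), and leaving out young ISRIB replicate 1 (0.0363) or 2 (0.0344), old saline replicate 1 (0.0441) or 2 (0.0411), or old ISRIB replicate 4 (0.0393). Of 31 ATF4 and CHOP targets, 6 were higher and 0 lower (edgeR), among them Phgdh (1.05), Herpud1, a part of protein degradation at the endoplasmic reticulum (0.60), and Jdp2, a bZIP factor (0.90). Their median log2 fold change was 0.07 against 0.004 over all genes. In the same comparison 7 of 9 tested B and plasma cell markers were called as higher, among them Igkc (4.65), Ighm (3.90) and Jchain (6.42), and 4 of 7 T and NK cell markers (Cd8a 3.28, Lck 2.18, Cd3g 2.84 and Trbc2 2.51). Of the mature alveolar macrophage markers 7 of 10 were higher, with Krt79 at 2.73 and Marco, a scavenger receptor, at 2.25. Krt19 of epithelium (1.40), Clec9a of dendritic cells (1.17) and the neutrophil genes Mmp9 (2.41) and Cxcr2 (1.75) were higher too. Epcam, another epithelial marker, averaged 13.2 CPM in young and 11.6 CPM in old saline macrophages, and 8.68 and 7.30 CPM with ISRIB. Median sums of 10 epithelial markers were 125 CPM in young and 95.0 CPM in old saline macrophages, and 128 and 174 CPM with ISRIB. The part of all these cells in the values of Ppp1r15a, Atf5 and the ATF4 and CHOP targets was not tested.

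The comparison of ISRIB with saline asks whether a drug that acts at eIF2B changes the cells recruited after injury. In old macrophages 0 of 10 members were called and 0 of 12171 genes in all (0%), while 9.14% of genes had an unadjusted p under 0.05 and none of the members did. DESeq2 and limma voom called 0 members as well. Ppp1r15a was at 33.7 ± 6.69 CPM with saline and 31.5 ± 2.35 CPM with ISRIB (SD, n = 5 each), a log2 fold change of -0.11 ± 0.18 (adjusted p 0.904 by edgeR). Atf5 had 20.8, 18.8, 21.7, 13.5 and 24.7 CPM with ISRIB, within and above the saline values, for 0.64 ± 0.33 (adjusted p 0.567). Trib3 had 7.66, 7.59, 3.87, 4.80 and 3.23 CPM with ISRIB and 3.87, 0.565, 4.70, 2.51 and 3.97 CPM with saline (0.77 ± 0.47, adjusted p 0.663). Replicates 1, 2 and 4 of old ISRIB were above all saline libraries in Trib3, and replicates 3 and 5 were not.

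In young macrophages edgeR also called 0 of 10 members and 0 of all genes with ISRIB (0%), but 2 members and 12.4% of genes had an unadjusted p under 0.05. The members were Ppp1r15a, with means of 14.6 ± 2.79 CPM in 5 saline and 23.6 ± 8.87 CPM in 4 ISRIB libraries (log2 fold change 0.73 ± 0.20, adjusted p 0.135), and Atf5, with 4.78 ± 2.70 and 12.7 ± 4.196 CPM (1.41 ± 0.36, adjusted p 0.128 by edgeR). Both groups overlapped in both genes through young ISRIB replicate 3, which had 16.2 CPM of Ppp1r15a and 6.99 CPM of Atf5. Without that replicate Ppp1r15a (0.88, adjusted p 0.0222) and Atf5 passed, and both did without a filter on low counts. DESeq2 called Ppp1r15a (adjusted p 0.0365) and limma voom called no member. Young ISRIB replicate 3 also had the lowest immediate early sum of all macrophage libraries, 2382 CPM, and replicate 2, highest of its group in Ppp1r15a at 36.4 CPM, had the highest, 6268 CPM. The age and ISRIB comparisons in young mice share the young saline libraries, so their fold changes for Ppp1r15a and Atf5 are not independent.

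Averaged over both ages, ISRIB macrophages had 1 member called, Atf5, with 0.830% of all genes called and 0.452% as higher. Atf5 was higher by 1.02 ± 0.24 (adjusted p 0.0429 by edgeR). Only 10 of 26 alternatives kept the call, which 14 of the 19 single libraries left out in turn undid, with adjusted p from 0.00878 to 0.123. Without TMM scaling the adjusted p was 0.0525 and in a fit of all 39 libraries 0.0557. Eif2ak2 was at -0.28 ± 0.11 (adjusted p 0.176), and 15 of 16 interferon-induced genes were also negative, with a median log2 fold change of -0.49 against -0.004 over all genes and none called. The part of interferon in this Eif2ak2 value was not tested. Atf4, at 0.17 ± 0.08 (adjusted p 0.286), passed on leaving out young ISRIB replicate 3 (adjusted p 0.0447). None of the subunits of eIF2 and eIF2B, regulators, or ATF4 and CHOP targets was called. Hspa8, a constitutive heat shock protein, was higher by 0.37 (adjusted p 0.0341 by edgeR). Of the immediate early genes only Socs3 was called, as lower (-0.42, adjusted p 0.0429 by edgeR). Of 10 macrophage markers, Siglecf (0.57) and Mrc1 (0.35) were called as higher as well, and their part in the Atf5 difference was not tested. The list as a whole did not rise in old macrophages, with median sums of 20100 CPM with saline and 16430 CPM with ISRIB. In young macrophages the median sums were 21420 and 21620 CPM.

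The difference between the ISRIB effects in old and young macrophages was called for 0 of 10 members and 0 of all genes (0%) by edgeR, and for 0 members by DESeq2 and limma voom. At an unadjusted p under 0.05 there were 5.10% of all genes and 1 member, Ppp1r15a, with -0.85 ± 0.27 (adjusted p 0.869). An ISRIB effect in young mice that differs from that in old mice was thus not shown.

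In monocytes of naive mice 0 of 9 members tested were called in any of the 7 comparisons of age and ISRIB, and DESeq2 and limma voom called none. Trib3, at 0 to 2.32 CPM, was below the filter on low counts. Few genes were called at all: 0.0247% for age in saline, 0.123% for age averaged over treatments, and 0% in the other 5. At an unadjusted p under 0.05 there were 2, 1, 0 and 1 members for ISRIB in old mice, in young mice, averaged, and as the difference of old and young, against 7.54%, 6.65%, 7.49% and 7.11% of all genes. For age there were 2 with saline, 2 with ISRIB and 1 averaged, against 8.81%, 6.60% and 8.24%.

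The values farthest apart were those of Atf4 and Ddit3 in old monocytes with ISRIB. Atf4 had 178, 201, 272, 306 and 355 CPM with ISRIB and 155, 166, 161, 213 and 203 CPM with saline, so replicates 3 to 5 were above all saline libraries and replicates 1 and 2 were not. Its log2 fold change was 0.60 ± 0.20 (unadjusted p 0.00517, adjusted p 0.488 by edgeR). Ddit3 had 10.4, 8.38, 13.7, 17.6 and 19.8 CPM with ISRIB and 8.58, 6.96, 7.70, 12.5 and 10.7 CPM with saline, with the same 3 replicates above the saline range (0.64 ± 0.24, adjusted p 0.549). Old ISRIB replicates 4 and 5 had lower immediate early sums, 13080 and 9978 CPM, than replicates 1 to 3 at 16670 to 16830 CPM, and replicate 5 had 81.5 CPM of epithelial markers against 8.25 to 14.8 CPM in the rest. The part of these in the Atf4 and Ddit3 values was not tested. The difference between the ISRIB effects in old and young monocytes was 0.82 ± 0.28 for Atf4 (adjusted p 0.554). Young saline replicate 4, the library that stood apart, had the highest Atf4 of its group, 308 CPM. Without it this difference was 0.64 (adjusted p 0.547 by edgeR).

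Eif2ak3 in saline monocytes was at 72.7 ± 20.7 CPM in young and 102 ± 21.8 CPM in old mice (SD, n = 5 each; log2 fold change 0.45 ± 0.18, adjusted p 0.455 by edgeR). Without young replicate 4, the library that stood apart, the log2 change was 0.28 (adjusted p 0.512). Ppp1r15a was at 185 ± 57.6 CPM in young and 203 ± 51.6 CPM in old saline monocytes (0.10 ± 0.23, adjusted p 0.944).

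Whether age acts differently on the cell types was tested with the difference between the age effects in saline macrophages and saline monocytes. No member passed, against 0.250% of all genes called, with 4 members at an unadjusted p under 0.05 (Eif2ak3, Ppp1r15a, Atf4 and Atf5) beside 10.9% of all genes. Ppp1r15a was at 1.15 ± 0.32 (adjusted p 0.103 by edgeR), and it passed with DESeq2 (0.0269), with no filter on low counts (0.0384) and without young saline monocyte replicate 5 (0.0364). The other 19 of 20 fits that left out 1 library did not call it (adjusted p up to 0.201 by edgeR), and limma voom called no member. Without young saline monocyte replicate 4, the library that stood apart, Ppp1r15a was at 1.02 (adjusted p 0.144 by edgeR). Nfkbia (1.31) and Cxcl2 (2.54), both immediate early genes, were called as higher, Atf6, a stress sensor of the endoplasmic reticulum, as lower (-0.57), and Hspa8 as higher (0.82). Ighm, a B cell marker, was called as higher (3.68, adjusted p 0.00955 by edgeR) and Ccr2 as lower (-2.04, adjusted p 0.0152), and their part in the Ppp1r15a value was not tested. For the ISRIB effect averaged over ages, macrophages minus monocytes, 0 members and 0% of genes were called, with 1 member, Atf5, at an unadjusted p under 0.05 (0.98 ± 0.34, adjusted p 0.420 by edgeR) beside 8.38% of all genes, and DESeq2 and limma voom called no member.

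The genes most alike to each member over the 19 macrophage libraries were listed from 8337 candidates by Pearson's r of log2 CPM, as a description in which the groups, depth and sort are shared. Atf5 was most like Mcam, an adhesion molecule (r = 0.932), Hspa8 (0.921) and Pcyox1, a lysosomal oxidase (0.915). Atf4 was most like Gstm1, a glutathione transferase (0.907), Slpi, a protease inhibitor (0.905), and Zbtb4 (0.899). Ppp1r15a was most like Plpp3, a lipid phosphatase (0.872), Lmtk2 (0.862) and Rgcc (0.860), and Ppp1r15b like Atxn1 (0.851). Eif2ak2 led the kinases with Gm49342 (0.845), and the highest values for Eif2ak1, Eif2ak3, Eif2ak4 and Ddit3 were 0.803, 0.782, 0.750 and 0.756. Trib3 was too low to be compared.

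Several members overlap genes on the opposite strand in the annotation, and the strand setting of the counting is not given, so shared reads cannot be assigned. Ppp1r15a (ENSMUSG00000040435, chromosome 7, 45522916 to 45526268, minus strand) shared 12 exon bases, or 0.4%, with Tulp2. Atf5 (ENSMUSG00000038539, chromosome 7, 44812256 to 44816658, minus strand) shared 82 bases, 4.1%, with Il4i1, which had 1126 counts over all libraries against 2827 for Atf5. Ddit3 (ENSMUSG00000025408, chromosome 10, 127290774 to 127296288, plus strand) shared 68 bases, 4.0%, with Mars, which had 14503 counts against 3584. A second entry named Ddit3 on the same strand shared 105 bases, 6.1%, and was not analysed here. Ppp1r15b shared 640 bases, 11.4%, with Gm26616 (943 counts against 122279). Eif2ak1 shared 487 bases, 8.6%, with Aimp2 (2253 counts against 35441) and 172 bases, 3.0%, with Ankrd61 (1055 counts). Eif2ak2 shared 174 bases, 3.4%, with Gm26637 (955 counts against 27289). Eif2ak3 shared 485 bases, 8.0%, with Gm43292, and Atf5 also shared 82 bases, 4.1%, with Nup62, for which no counts were found. Atf4 (ENSMUSG00000042406, chromosome 15, 80255184 to 80257541), Eif2ak4 and Trib3 (ENSMUSG00000032715, chromosome 2, 152337422 to 152344032) overlapped no other gene.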

How the data were processed

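RNA was sequenced from polyA-selected libraries made from 3 ng of RNA. Per the submitters' processing notes, reads were handled with bcl2fastq 2.19.1, FastQC, Trimmomatic 0.36, STAR 2.6.0 and HTSeq 0.11.2 on build mm10. Their settings, the strand used in counting and the annotation release were not given in the sources used here. The deposited values are counts, per the file headers 1 column per library holding the whole-number count of each Ensembl gene; no scaling or filter was found in them. From these, symbols, positions and exon lengths were taken from GENCODE vM21 (GRCm38), with 42462 of 43430 IDs (97.8%) matched, and promoters from RefSeq.

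Tests used quasi-likelihood in edgeR 4.0.16 (R 4.3.3), TMM scaling, filterByExpr (minimum count 10, minimum total 15) and Benjamini-Hochberg adjustment over all genes tested; a gene was called at an adjusted p under 0.05. The fits held 19 macrophage libraries (12171 genes), 20 monocyte libraries (12170 genes) or all 39 (13587 genes), with 1 mean per group and no covariate. CPM are counts scaled by the library total, without TMM. Standard errors are the log2 fold change divided by the root of the F statistic. At 4595331 to 16056708 counts per library, counting error is largest for Trib3 (0 to 74 counts), Atf5 (from 9 counts) and Ddit3 (from 35). The test was checked on simulated data for old against young saline macrophages (11940 genes): 63.2% of 87 genes changed by a log2 of 1 and 85.5% of 110 genes changed by 2 were recovered, with 9 false calls.

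The members, lists, tests and the naming rule were chosen with earlier results of these data known. The 10 members are always named, and of each list up to 5 called genes per comparison with the smallest adjusted p. The 3 genes most alike were sought for members of at least 5 CPM over macrophages, among genes of at least 10 CPM, by log2 CPM (prior count 2). All 226 listed symbols were matched. In young saline and old saline macrophages, neutrophil markers summed to 81.9 to 122 and 89.1 to 156 CPM, fibroblast markers to 2.24 to 41.2 and 2.63 to 9.94 CPM, endothelial markers to 116 to 189 and 163 to 229 CPM, and dendritic cell markers to 17.1 to 30.5 and 23.6 to 36.0 CPM.

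The labels do not say that libraries came from separate animals, so p-values measure the spread between these libraries, which may be technical. No duplicate was found: over 76 pairs within groups the chi-square per degree of freedom was 7.04 to 52.8. Alternatives were median-ratio size factors, library totals without TMM (added after seeing the data), no filter, DESeq2 1.42.0, voom of limma 3.58.1, other sets of libraries, a replicate block and leaving out each library.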

Additional observations from a re-analysis of the deposited data

Results flagged for a closer look

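Of 80 values of a member within a group, 3 had a library far from the others of its group, which chance gives in about 5% of groups. Eif2ak3 in young saline monocyte replicate 4 was 36.78 CPM against 76.31 to 89.28 CPM in the other libraries; this is the library with the lowest total and the fewest genes. Ppp1r15a in young ISRIB monocyte replicate 2 was 116.8 CPM against 184.4 to 210.8 CPM, and that library had the lowest immediate early sum of its group, 11860 CPM. Trib3 in old saline monocyte replicate 1 was 2.318 CPM (20 counts) against 0 to 0.6141 CPM.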

How the results depend on the processing

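Over 17 comparisons, 367 of 400 counts of called members under the alternatives were within 1.5 times the reported count and 33 were not, and none of the 14 called differences of a member changed direction under any alternative run; of 3490 alternative values of members not called, 179 had the opposite sign. For ISRIB in young macrophages the count was 2 with no filter and 1 with DESeq2, and 0 to 2 on leaving out 1 library. For ISRIB averaged over ages in macrophages it was 0 with library totals, 0 in the fit of all 39 libraries and 0 to 2 on leaving out 1 library. For age in saline macrophages it was 1 with library totals, 1 with only the groups compared, 1 with voom, and 1 to 2 on leaving out 1 library; for age averaged over treatments it was 2 to 3. For the difference of the age effects between cell types it was 1 with no filter, 1 with DESeq2 and 0 to 1 on leaving out 1 library. The 9 calls between cell types held on leaving out each library (9 to 9). The cause of these changes was not tested.

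Counts over all genes moved more. For ISRIB averaged over ages in macrophages, 101 genes became 640 with no filter, 434 with DESeq2, 169 with voom and 17 in the fit of all 39 libraries; for age in saline macrophages, 141 became 468 with no filter, 264 with DESeq2 and 60 in the fit of all 39 libraries. Leaving out 1 library gave 13 to 649 and 47 to 289. With no filter, with DESeq2 and in the fit of all 39 libraries, age in ISRIB macrophages (114) gave 405, 219 and 50, and age averaged over treatments (592) gave 975, 809 and 340. With no filter and with DESeq2, ISRIB gave 220 and 49 genes in old and 224 and 119 in young macrophages, each 0 as reported, and the difference of age effects between cell types (34) gave 76 and 150, with 22 by voom and 19 with only the groups compared. In monocytes age with saline (3) gave 15, 41 and 34 with no filter, with DESeq2 and in the fit of all 39 libraries, and ISRIB in old mice (0) gave 21, 12 and 17. The replicate block changed no count of called members (2 for age in saline macrophages, 1 for ISRIB averaged over ages). Over all genes these counts were 180 and 343 with the block, against 141 and 101 without it. Same-numbered libraries of different groups had deviations from their group means with r of -0.148 to 0.165 in macrophages and -0.191 to 0.242 in monocytes. Of these pairs, 2 of 27 in macrophages and 4 of 30 in monocytes were over 0.1. The labels do not say whether a number stands for a shared day or batch, and these correlations cannot settle it.

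Low counts limit Trib3, at 0 to 74 counts per library, and Atf5, at 9 to 220, which lies near the threshold in 2 of its 3 calls within macrophages. Depth does not separate cell type from bleomycin, nor RNA levels from cell make-up, and translation was not measured.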
